A study of Homo sapiens with 7 samples.

Results

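The regions described are the SP1 ChIP-seq peaks of HCT116, an established human colon adenocarcinoma cell line. All 27015 peaks of the deposited list were taken, with no filter, and they come from 1 of the 7 samples of the series. In ChIP-seq, DNA bound by a protein is pulled down with an antibody and sequenced, and a peak is a stretch where a peak caller finds more reads than its background. The antibody was directed against SP1 (Active Motif), and the cells of all 7 samples are HCT116 grown in McCoy 5A medium with fetal bovine serum. The other samples, transposon insertions and RNA, were not used. The labels give no ChIP protocol, no input control and no treatment that sets this sample apart. With 1 sample there is no replicate, so no test was made and no p-value is given. Intervals are 95% intervals that cover counting error over peaks only and take peaks as independent.

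SP1 is a ubiquitous transcription factor whose zinc fingers recognise GC-rich elements known as GC boxes. Such elements are common in CpG-rich promoters, including those of many housekeeping genes, so SP1 binding is known mainly from promoters in gene-rich parts of the genome. Genes lie unevenly over human chromosomes: chromosomes 19, 17 and 22 are known as gene-dense, and chromosomes 4, 13, 18, X and Y as gene-poor. The coordinates are on hg18. No genome sequence or gene annotation of that build was used, so peaks are given by position, with no gene name, no motif and no printed sequence, and the presence of GC boxes in the peaks was not checked.

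Each peak carries a start, an end and a score given by the authors' peak caller, whose scale is not stated. The scores are used here only to rank and describe peaks within this list. The score ran from 200.01 to 3219.84 with a median of 385 (382 to 388) and quartiles of 273 and 597. Low scores made up much of the list: 8723 peaks (32.3%) scored below 300. A score of 1000 or more, called high below, was reached by 1628 peaks (6.03%, 95% Wilson interval 5.75 to 6.32). Widths ran from 222 to 8085 bp with a median of 825 bp (819 to 830) and quartiles of 642 and 1154 bp. Together the peaks covered 0.871% of the 2990 Mb between the first and the last peak of the 24 chromosomes, at 9.03 peaks per Mb.

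The typical gap between neighbouring peaks was far shorter than the mean gap. The mean gap, from the end of a peak to the start of the next, was 109.8 kb, but the median was 17.1 kb, with quartiles of 4.04 and 69.4 kb. Of 26991 gaps, 10822 (40.1%, 39.5 to 40.7) were under 10 kb, 80.8% were under 100 kb and 98.1% were under 1 Mb. Gaps under 1 kb numbered 3050 (11.3%, 10.9 to 11.7). The gaps formed a single broad hump on a log scale, highest between about 5 and 100 kb, with a long tail of short gaps. Counted per 100 bp of gap length, gaps became rarer without a break: 590 below 200 bp, 293 from there to 500 bp, 199.4 up to 1 kb, 64.5 between 5 and 10 kb and 1.02 between 100 and 500 kb. With only the 18292 peaks that scored at least 300, the share of gaps under 10 kb was 30.4%.

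**Figure D1:**
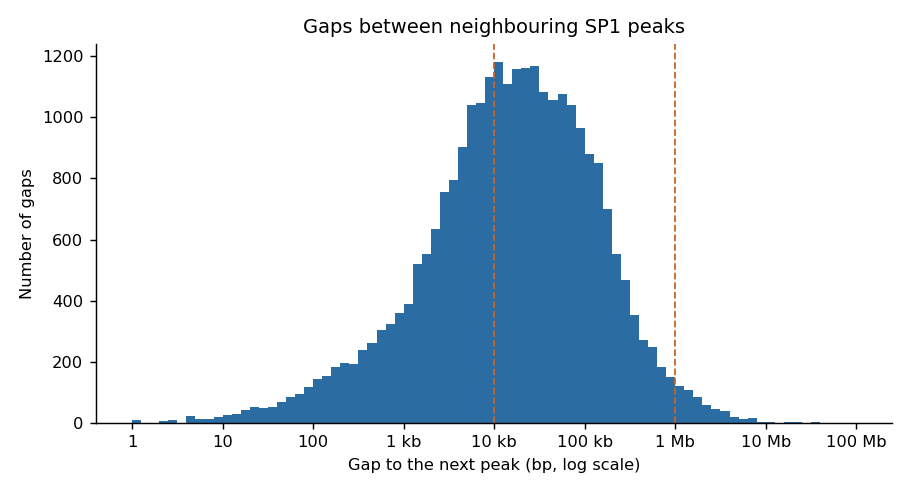
Number of gaps between neighbouring SP1 peaks (y axis) by gap length in bp on a log scale (x axis). Dashed lines mark 10 kb, under which 40.1% of gaps fell, and 1 Mb, above which 515 gaps fell.

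No peaks overlapped, but some nearly touched. The shortest gap was 1 bp and occurred 10 times. Among the 5 closest pairs taken by summed score, the pair on chromosome 12 at 105164739 to 105165624 and 105165626 to 105166637 scored 522 and 871. On chromosome 19, 63598281 to 63599775 and 63599777 to 63600960 scored 838 and 277. The pair on chromosome 13 at 98026245 to 98027384 and 98027386 to 98028144 scored 338 and 691. On chromosome 7, 958770 to 960775 and 960777 to 961541 scored 312 and 637, and on chromosome 15, 72968660 to 72969259 and 72969261 to 72970237 scored 329 and 507. The higher score of these 5 pairs was 1.5 or more times the lower. The median ratio was 1.56 over all neighbours less than 200 bp apart and 1.58 over all neighbours. Whether the 5 pairs differ from other close pairs was not tested. The list does not say how the caller separated them.

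Peaks were linked into chains wherever the gap was at most 10 kb, which gave 16193 chains. Single peaks made up 11729 of them (43.4% of all peaks), and 2423 were pairs. Chains of 5 or more, called clusters, numbered 809 and held 6356 peaks (23.5%) within 24.6 Mb, which is 0.822% of the spanned genome. Inside clusters there were thus 259 peaks per Mb, and the median cluster spanned 25.8 kb. Chains of 10 or more numbered 177, on 20 chromosomes, and chains of 20 or more numbered 16, on 8 chromosomes. A peak of 1000 or more was present in 223 of the 809 clusters (27.6%). By peaks, 294 of the 6356 in clusters scored that high (4.63%, 4.14 to 5.17), against 6.03% of all peaks. How many clusters would hold such a peak at these shares was not computed. The count of clusters rests on the link and on weak peaks. It was 410 with a link of 5 kb and 366 with peaks of at least 300 only.

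The cluster with the most peaks lay near the end of the long arm of chromosome 16, from 87294423 to 87480721. Its 39 peaks over 186 kb had a median width of 1238 bp, well above that of the whole list, and a median score of 422, and 4 of them scored high. The cluster on chromosome 19 from 1156194 to 1251342 packed 33 peaks into 95.1 kb. Peaks covered 49.1% of that stretch, and its median gap was 881 bp. On chromosome 9, 30 peaks from 136356297 to 136470024 had a lower median score of 345 and none scored high, the highest being 881. A second cluster on chromosome 9, 26 peaks from 139024088 to 139130237, had a median score of 472. On chromosome 17, 26 peaks from 76611678 to 76733204 had a median score of 526 and reached 1855. All 5 lay within a few Mb of the first or last peak of their chromosome. Each also ended at an ordinary gap, from 10.3 to 27.2 kb on either side, so these are dense stretches of peak-rich regions and not islands in empty ones.

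At the other extreme, 515 gaps of 1 Mb or more, called deserts, took up 1269 Mb or 42.4% of the spanned genome, although they were 1.91% of all gaps. Their median length was 1.69 Mb, and 201 reached 2 Mb, 40 reached 5 Mb and 7 reached 10 Mb. Every chromosome had at least 3. Centromeres and unsequenced stretches also hold no peaks, and the list does not mark them, so how much of this length could be sequenced at all was not tested.

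The longest desert was on Y, 19614535 to 57763625, at 38.1 Mb. Next came chromosome 1 from 120963216 to 142478462 (21.5 Mb), X from 77281807 to 96416708 (19.1 Mb) and chromosome 9 from 46960170 to 65316213 (18.4 Mb). Those on Y and chromosomes 1 and 9, with chromosome 16 from 34842230 to 45212345 (10.4 Mb), fall where these chromosomes are known to carry large blocks of heterochromatin. The desert on chromosome 4 from 57546545 to 68093482 measured 10.5 Mb and that on chromosome 5 from 21377532 to 31567819 measured 10.2 Mb. The remaining 4 of the 10 longest were X from 138842791 to 148429786 (9.59 Mb), chromosome 19 from 23939326 to 32976332 (9.04 Mb), chromosome 18 from 33401384 to 41609214 (8.21 Mb) and Y from 2619710 to 10644769 (8.03 Mb). Chromosome 19, the densest in peaks, is among them, but how much of its desert could be sequenced was not tested. Peaks that flanked a desert scored close to the rest, with a median of 378 (357 to 396) over 955 peaks, but fewer of them scored high, 4.08% (3.00 to 5.53) against 6.03% of all peaks.

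Chromosomes differed in peaks per Mb by more than 100 times, from 37.5 on chromosome 19 (Poisson interval 36.0 to 39.1) to 0.242 on Y (0.133 to 0.407, 14 peaks). Length here is the distance between the first and the last peak. It keeps long deserts such as those of chromosomes 1 and 9. It leaves out the stretch before the first peak: 19.1 Mb on chromosome 13, nearly as much on 14, 18.5 Mb on 15, 9.72 Mb on 21 and 14.5 Mb on 22. Counted from coordinate 1, the densities of these chromosomes would be lower. The rank of 22 above 17 and the middle group below therefore rest on this length. Chromosome 22 followed with 30.8, chromosome 17 with 27.6 and chromosome 16 with 18.98, so the top of the order holds gene-dense chromosomes. Chromosomes 20 and 11 had 13.3 and 12.0. By this length, a broad middle group had nearly the same density: chromosome 1 had 10.2, 14 had 9.92, 9 had 9.74, 15 had 9.59, 7 had 9.26 and 21 had 9.09. Within it, the Poisson intervals of neighbours in the order overlapped. Lower values were 8.44 on chromosome 12, 7.76 on 10, 7.18 on 8, 6.91 on 2, 6.14 on 6, 5.80 on 3 and 5.43 on 5. The sparsest autosomes were 18 with 4.60, 4 with 4.30 and 13 with 4.18, whose intervals overlapped, and X had 1.87 (1.66 to 2.10). The ratio of the densest to the sparsest chromosome, 155 in all, was 20.05 without Y and 8.98 over autosomes alone.

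The arrangement of peaks differed between chromosomes, also between some of similar density. On chromosome 19, 43.0% of peaks lay in clusters and the median gap was 6.53 kb, against 4.28% and 54.7 kb on chromosome 13. Between first and last peak, chromosomes 15 and 9 had nearly equal densities, but this length leaves out 18.5 Mb before the first peak of 15. Yet 5.10% of peaks lay in clusters on 15 and 29.96% on 9, with median gaps of 34.7 and 12.4 kb. Chromosome 4, among the sparsest, still had 17.9% of its peaks in 19 clusters. Deserts took up 10.1% of the span of chromosome 22 and 65.6% of that of chromosome 21, the highest share among autosomes.

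**Figure D2:**
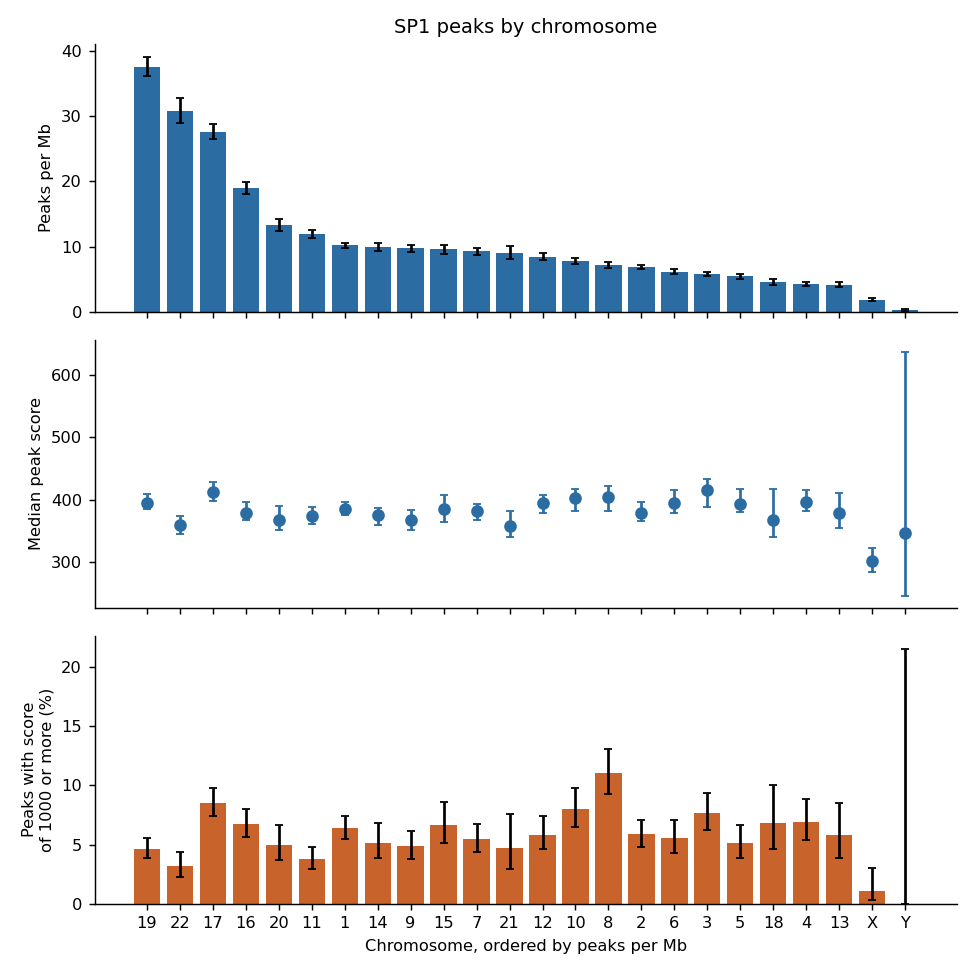
Chromosomes ordered by density: peaks per Mb (top, with Poisson intervals), median peak score (middle, with 95% intervals) and share of peaks with a score of 1000 or more in percent (bottom, with Wilson intervals). Density falls from 37.5 to 0.242, the median score stays between 358 and 415 on all 22 autosomes and is 302 on X, and chromosome 8 has the highest share of high scores, 11.05%.

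In contrast to density, scores varied little between autosomes. The median score ran from 358 on chromosome 21 to 415 on chromosome 3, and did not follow the order of density: chromosome 22 had 360.1 and the sparse chromosome 4 had 396. Median widths of autosomes ran from 783 bp on chromosome 21 to 928 bp on chromosome 8. The share of high scores varied more, from 3.15% on chromosome 22 (2.26 to 4.37) to 11.05% on chromosome 8 (9.29 to 13.1), with 8.53% on chromosome 17 (7.43 to 9.78) and 8% on chromosome 10 (6.51 to 9.80).

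The X chromosome stood apart from the autosomes in score as well as in number. Its 287 peaks had a median score of 302 (285 to 322) and a median width of 681 bp, both below every autosome, and 3 of them scored high (1.05%, 0.356 to 3.03). The sparsest autosomes, 18, 4 and 13, together had a median of 387 (377 to 406) over 1570 peaks. X was also lower than the autosomes at each distance from the nearest other peak, and the cause was not tested. Under 10 kb the median was 292 (265 to 324) on X and 372 (368 to 376) on autosomes. Between 10 and 100 kb it was 305 against 409, and beyond 100 kb it was 310 (273 to 336) against 415 (401 to 429).

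Along chromosomes, peaks were concentrated in a small part of the sequence. In 3088 windows of 1 Mb the median was 3 peaks and the mean 8.75, and 845 windows (27.4%) had none. Windows start at coordinate 1, so the empty ones include stretches before the first peak, such as 19.1 Mb on chromosome 13. Centromeres and unsequenced stretches are not marked in the list. How much they add to the values of this paragraph was not tested. A total of 262 windows (8.48%) held 50% of all peaks, the top 1% of windows held 12.0% and the top 20% held 73.6%. Peak-rich and peak-poor windows came in runs. Spearman's rank correlation between the counts of adjacent windows was 0.633 (3064 pairs), and it was 0.458 at 2 Mb, 0.266 at 5 Mb, 0.178 at 10 Mb and 0.0850 at 20 Mb. These values describe windows of the same chromosomes and carry no test. Most runs of empty windows were short: of 336 runs, 181 were a single window, and the longest had 37.

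The 5 windows with the most peaks lay in the first or last few Mb of chromosomes. Chromosome 9 from 138 to 139 Mb had 162 peaks, with peaks on 17.1% of its sequence and a median gap of 2.63 kb. Chromosome 19 from 1 to 2 Mb had 160, with the highest median score of the 5, 461. Chromosome 16 had 138 peaks from 1 to 2 Mb and 132 from 87 to 88 Mb, and chromosome 1 had 123 from 1 to 2 Mb, tied with chromosome 16 from 2 to 3 Mb. That of chromosome 1 had the lowest median score of the 5, 346. The 15 windows with 100 or more peaks were spread over 10 chromosomes and held 6.80% of all peaks.

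Chromosome ends were rich in peaks as a rule. The last 5 Mb before the last peak were set against the middle, not against all the rest of the chromosome. The middle leaves out the first and the last 5 Mb of the span. The last 5 Mb had more peaks per Mb than the middle on 21 of 23 chromosomes, Y left aside, with a median ratio of 3.66. The ratio was highest on chromosomes 8 (16.6), 21 (16.1) and 9 (13.2), and below 1 on chromosomes 1 (0.657) and 10 (0.979). On chromosome 8 this meant 76.4 peaks per Mb in the last 5 Mb against 4.61 between the ends. At the other end, 18 chromosomes had a first peak before 5 Mb. On 16 of these the first 5 Mb were denser than the middle. Over the 18 the median ratio was 2.09 and the maximum 16.1 on chromosome 4. Chromosomes 3 and 9 fell below 1, at 0.362 and 0.703. Together these ends held 25.7% of all peaks on 6.86% of the spanned length. The median chromosome had 36 peaks in the last Mb, 29 in the next and 12 at 4 to 5 Mb from the last peak. Farther in, the median varied between 1 and 10 per Mb, out to 30 Mb. More peaks did not mean higher scores there: the median score of the last 5 Mb exceeded that of the middle on 6 of 23 chromosomes.

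**Figure D3:**
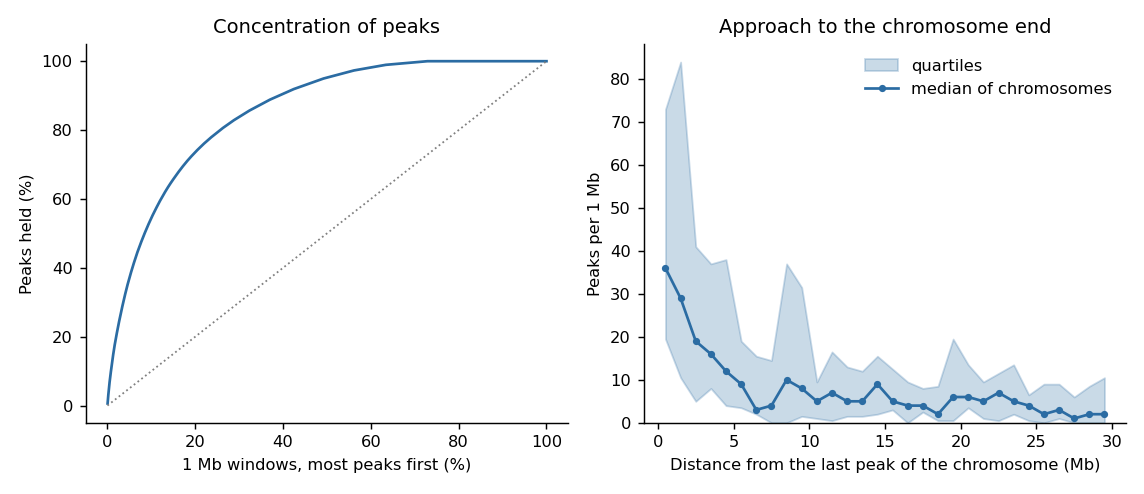
Left, share of all peaks (y axis, percent) held by 1 Mb windows taken from the fullest down (x axis, percent of windows), with a dotted line for an even spread; 8.48% of windows hold 50% of peaks. Right, peaks per 1 Mb (y axis) by distance from the last peak of the chromosome (x axis, Mb), as the median and quartiles of 23 chromosomes; the median falls from 36 to 12 by 4 to 5 Mb and then varies between 1 and 10.

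Wider peaks had higher scores, up to a point. Across all peaks Spearman's rank correlation between width and score was 0.590, and within single chromosomes other than Y it lay between 0.542 and 0.656. Both measures come from the same reads of the same caller, and only peaks above its threshold are listed. The median width rose at every step from 574 bp in the 10% of peaks with the lowest scores to 1243 bp in the 10% with the highest. Score rose with width only among narrow and medium peaks: the median was 231 below 500 bp, 340.5 from there to 1 kb, 567 up to 1.5 kb and 617 up to 2 kb. It was then 592 (558 to 613) for 863 peaks of 2 to 3 kb and 479 (430 to 542) for 141 peaks of 3 kb or more. The share of high scores followed the same course, 0 of 1424 peaks below 500 bp, 1.81%, 14.0%, 15.8%, 13.7% and 8.51%. Within the 25% of peaks that were widest, the rank correlation was 0.0176, against 0.325 within the 25% that were narrowest.

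**Figure D4:**
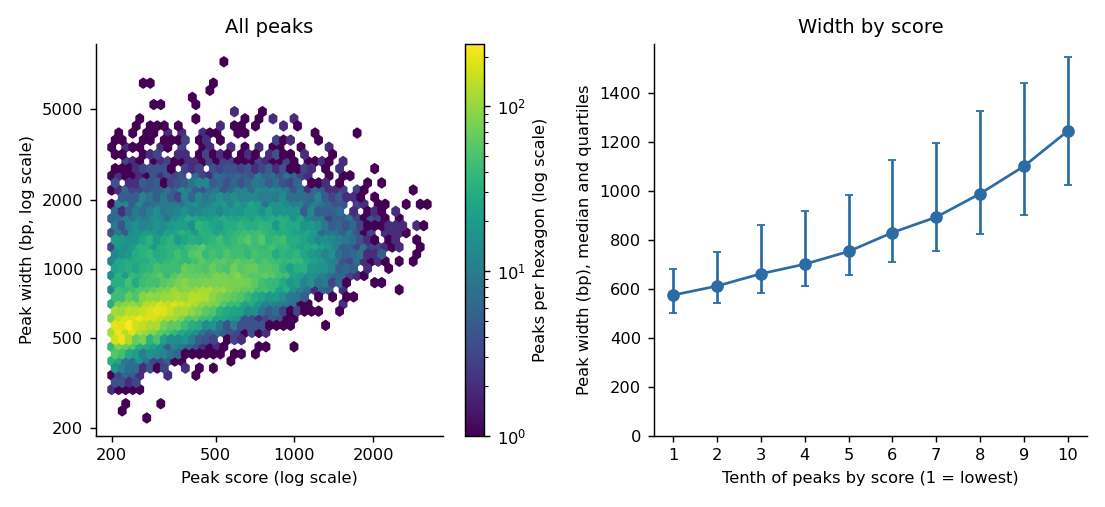
Left, width in bp against score for all peaks, both on log scales, with color for the number of peaks per hexagon. Right, median width with quartiles (y axis, bp) for 10 groups of peaks from the lowest to the highest score (x axis); the median rises from 574 to 1243 bp.

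The 5 highest-scoring and the 5 widest peaks were different peaks. The highest score, 3219.84, belonged to the peak on chromosome 17 from 74347444 to 74349373, 1930 bp wide and 35.7 kb from the nearest other peak. The next had a score of exactly 3100, on chromosome 3 from 198865187 to 198866767. The others of the top 5 were on chromosome 8 from 8122156 to 8124096 (2993), on chromosome 15 from 100318622 to 100320180 (2959) and on chromosome 8 from 102161479 to 102162716 (2937). The one on chromosome 15 is also the last peak of its chromosome, 215 kb from its neighbour. None of the 5 lay in a cluster, but of the 100 highest scores 25 did, near the 23.5% of all peaks. The widest peak, 8085 bp on chromosome 17 from 76705828 to 76713912, scored 542 and lay in the cluster of 26 peaks described above. The next were 6678 bp on chromosome 16 from 84201000 to 84207677 (score 482), 6359 bp on chromosome 17 from 71349781 to 71356139 (264), 6246 bp on chromosome 19 from 1183812 to 1190057 (282) and 6051 bp on chromosome 8 from 145608662 to 145614712 (461). All 5 lay in clusters, with 7 to 33 peaks each.

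Scores were highest at peaks of middling isolation, not in dense clusters and not in empty regions. By distance to the nearest other peak, the median score was 401 (389 to 414) under 200 bp, fell to 356 (347 to 365) between 500 bp and 1 kb, and stayed between 364 and 373 up to 10 kb. It then rose to 383, 406 and 446 (431 to 459), the last for 2354 peaks at 50 to 100 kb. Farther away it was lower again: 416 (400.1 to 430.4) up to 500 kb, 373 (317 to 411) up to 1 Mb and 325 (299 to 375) for the 77 peaks beyond 1 Mb. The share of high scores had the same shape, 5.04%, 3.19%, 8.92% and, beyond 1 Mb, 1.30%, which is 1 of 77 peaks. Without X and Y the medians at these points were 403, 357, 451 and 320.1, the same shape.

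Set against each other, isolated and clustered peaks therefore gave no single answer. Peaks over 100 kb from any other (2443) had a median score of 407 (392 to 420) and those in clusters 376 (371 to 382), a difference of 31.0 (9.77 to 49.1). With isolation set at over 500 kb (247 peaks) the median was 348 (317 to 386) and the difference turned to -28.7. Without X and Y that difference was -6.23, with a median of 370.0 (318 to 392) over 221 isolated peaks. The share of high scores was 7.70% (6.70 to 8.82) among peaks over 100 kb from any other and 4.63% (4.14 to 5.17) in clusters. The 5 highest scores among peaks isolated by over 500 kb were 1588 on chromosome 7 from 8267521 to 8268967, 1403 on chromosome 5 from 127446323 to 127448046, 1351 on chromosome 6 from 142664251 to 142665408, 1156 on chromosome 4 from 149584751 to 149586580 and 1127 on chromosome 7 from 82629434 to 82630461. The first ranked 223 among all peaks. Peaks this isolated were 0.914% of the list.

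**Figure D5:**
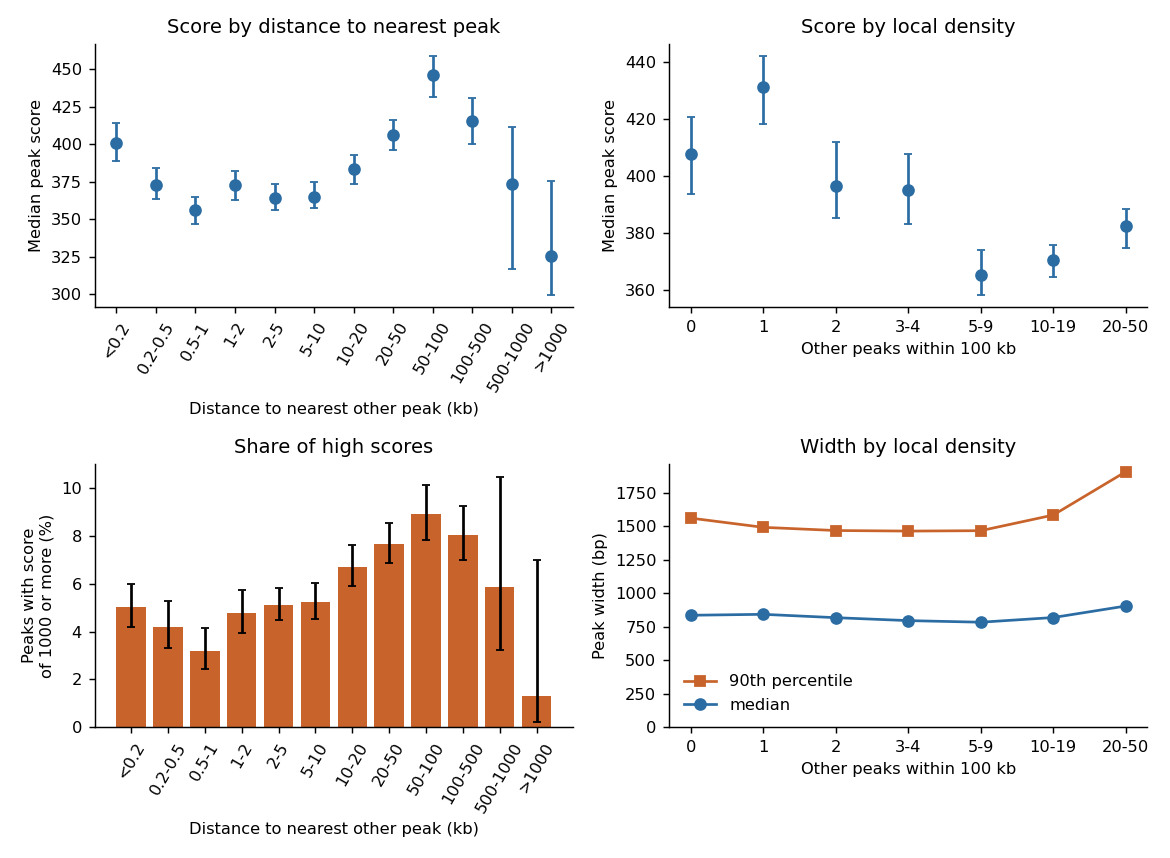
Median score with 95% intervals (top) and share of high scores in percent with Wilson intervals (bottom left) by distance to the nearest other peak in kb (left) or number of other peaks within 100 kb (top right); bottom right, median and 90th percentile of width in bp by the same number. The score peaks at 446 for peaks 50 to 100 kb from the next, and the 90th percentile of width rises to 1909 bp at 20 or more other peaks.

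Counted as the number of other peaks within 100 kb, local density had a median of 6 and reached 50, and 2471 peaks (9.15%) had none. The median score was 408 with no other peak, 431 (418 to 442) with 1, 365 (358 to 374) with 5 to 9 and 383 (375 to 389) with 20 or more. The rank correlation between score and density was -0.0575, a weak relation, and it was negative on 18 of 23 chromosomes. It was not negative on the chromosomes with the most peaks per Mb: 19 (0.0404), 22 (0.0236), 17 (0.00845) and 16 (0.0133). X was also positive (0.0555). Among the widest 25% of peaks, those with 0 or 1 other peak nearby had a median score of 654 (631 to 676) and those with 20 or more had 530.0 (506 to 559). Among the narrowest 25% the medians were 259.7 and 249, and the rank correlation there, -0.0344, was weaker than over all peaks.

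Width changed with density mainly at its upper end. The median width was 836 bp with no other peak within 100 kb, 784 bp with 5 to 9 and 905 bp with 20 or more, and the 90th percentile was 1562, 1468 and 1909 bp. At equal score, peaks in dense surroundings were wider. Among the 25% of peaks with the lowest scores the median width was 657 bp with 20 or more other peaks and 594 bp with 0 or 1, and among the 25% with the highest scores it was 1283 and 1150 bp. The rank correlation between width and density was 0.0575 over all peaks. Its sign was not shared by chromosomes: 11 were positive and 12 negative, with a median of -0.0103, from -0.0860 on chromosome 15 to 0.208 on chromosome 16.

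Neighbouring peaks did not resemble each other much in score. Over 26991 pairs of neighbours the rank correlation between their scores was 0.0651, and it was 0.0741 for gaps under 1 kb, 0.0640 from there to 10 kb, 0.0648 up to 100 kb and 0.0449 beyond. The higher score of a pair was typically 1.58 times the lower, with medians between 1.54 and 1.64 over these classes. Widths of neighbours had a rank correlation of 0.0704. In 160 pairs (0.593%) both peaks scored high.

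High scores were unevenly spread over chromosomes and their parts, a pattern picked after the values were seen. Of the 100 highest scores, 23 were on chromosome 8, which held 3.89% of all peaks, 19 on chromosome 17 (8.03% of peaks), 7 on chromosome 10 (3.89%) and 8 on chromosome 1, which held 9.34% of all peaks. With the span of each chromosome divided into 4 equal parts, the share of high scores on chromosome 8 was 6.13% (3.81 to 9.72), 9.27%, 20.9% (15.2 to 28.0) and 11.1%. The part from 73.1 to 110 Mb, with 32 high scores among 153 peaks, had a median score of 492. On chromosome 17 the shares rose along the chromosome, from 3.88% (2.50 to 5.98) over 6.14% and 10.5% to 11.6% (9.57 to 14.0). On chromosome 10 they were 5.91%, 5.10%, 4.88% and, from 102 Mb on, 12.9% (9.92 to 16.7). On chromosome 16 they were 6.68%, 5.42%, 4.27% and 8.12% (6.23 to 10.5). These 4 intervals overlapped each other, but that of the last part lay above the overall 6.03%. Shares of this size were not limited to these chromosomes: of the 95 parts with peaks, 13 on 11 chromosomes had 10% or more, among them the first part of chromosome 3 with 44 of 428 peaks (10.3%, 7.75 to 13.5). The parts on chromosomes 12, 18, 21 and X rested on only 8, 5, 6 and 3 high scores, and their intervals included 6.03%. The interval lay above the overall 6.03% in 10 parts and below it in 12.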

How the data were processed

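SP1 ChIP-seq was described from 1 sample as a list of peaks on hg18. Per the deposited readme, the list is output of the peak caller MACS, with a score per peak set by the authors. No label or header states the version, control, threshold or read depth, or the scale of the score. The names of the peaks number 1 to 27015 with none missing. A threshold, copy number and mappability can each change how many peaks a region gives and how they score, and none of them was measured. Groups come from the sample titles, and no group comparison was made.

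Starts were read as counted from 0 and are printed from 1. Gaps run edge to edge, chains link gaps of at most 10 kb, and clusters have 5 or more peaks. Windows of 1 Mb start at coordinate 1, and a peak belongs to the window of its centre. Density counts other centres within 100 kb. Chromosome length is the distance from first to last peak. Medians have order-statistic, shares Wilson and counts exact Poisson 95% intervals. Correlations are descriptions over peaks, with no p. Sites named are the 5 largest clusters, 10 longest deserts, 5 fullest windows, 5 highest scores, 5 widest, 5 highest isolated scores and 5 closest pairs. The high-score limit of 1000, the width classes and the parts of chromosomes were chosen after the values were seen, and members and rules were chosen with earlier results of these data known. The scripts were tested on simulated layouts and run in Python 3.11.15 with scipy 1.17.1 and pandas 2.3.3. Alternatives tried were other links, radii, windows and minimum scores, merged peaks and chromosomes left out.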

Additional observations from a re-analysis of the deposited data

How the results depend on the processing

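Of 43 alternatives for 10 results, 13 of them chosen after seeing the data, 3 turned a direction. The rank correlation between width and density was -0.0103 as the median within chromosomes, and the difference between isolated and clustered scores was -28.7 with isolation over 500 kb and -6.23 when X and Y were also left out. With peaks of at least 300 only, gaps under 10 kb were 30.4%, clusters 366, empty windows 31.9% and the rank correlation of width and score 0.466. Gaps under 10 kb were 38.2% from centre to centre and 32.5% with peaks within 1 kb merged. Clusters numbered 410 with a link of 5 kb and 177 as chains of 10 or more, and deserts of at least 2 Mb numbered 201. The density ratio was 20.05 without Y and 8.98 without X and Y, and 39.3% of 500 kb windows were empty. The correlation of width and score was 0.534 as Pearson's r of log2 values and 0.599 within chromosomes. The rank correlation of score and density was -0.0720 at 10 kb, -0.0698 without chromosome 19, -0.0975 within 4 groups by width, -0.0851 within chromosomes and -0.0793 within groups and chromosomes. The rank correlation of width and density was 0.0132 at 10 kb and 0.111 within 4 groups by score. The other 19 alternatives stayed within the interval, within 1.5 times the count or, for isolated and clustered scores, within the range given above. Among them, the density ratio with length from coordinate 1 could hardly move. It sets chromosome 19 against Y, whose first peaks lay at 0.0171 and 0.00342 Mb. It therefore does not test the order of the other chromosomes, some of which have a long stretch before their first peak. The cause of these shifts was not tested. The depth of the library is not given, so peaks too weak to be called at its depth cannot be counted. No paired analysis was possible because the peaks come from 1 sample.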

Other observations

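In blocks of 10 Mb with at least 50 peaks (146 blocks), a division chosen after the data had been seen, the median score ran from 294 to 581, with quartiles of 364 and 407. The highest was chromosome 10 from 110 to 120 Mb, 63 peaks with a median of 581 (484 to 717) and 15.9% high scores. Chromosome 2 followed from 60 to 70 Mb with 536 (393 to 616) over 55 peaks, and chromosome 9 from 30 to 40 Mb with 502 (417 to 598) over 92 peaks. The lowest was also on chromosome 2, from 10 to 20 Mb, with 294 (264 to 359) over 66 peaks. Chromosome 6 from 160 to 170 Mb had 310.4 over 66 peaks, yet 9.09% of them scored high. The intervals are wide, since blocks of this size hold few peaks, and the extremes were picked from 146 values. Across the 146 blocks the rank correlation between median score and number of peaks was -0.257. It compares block medians, unlike the -0.0575 between score and local density over single peaks.

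The most isolated peak was on Y from 19613860 to 19614534, 7.30 Mb from the nearest other, with a score of 471. On X, the peak from 30530306 to 30531042 lay 4.70 Mb from the nearest and scored 535. The narrowest peak, 222 bp on chromosome 1 from 159687153 to 159687374, scored 281. The most crowded peaks, with 50 others within 100 kb, lay on chromosome 19 between 1174007 and 1190057 and scored from 282 to 1037.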
